A study of Arabidopsis thaliana with 21 samples.

Results

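This account covers 42 genes of Arabidopsis thaliana, a small flowering plant, whose transcripts were found in seedlings of the accession Col-0 (Columbia-0) and almost not at all in seedlings of Ler (Landsberg erecta). They were chosen from 24100 loci with a count by CPM, the counts of a locus scaled to a library total of 1000000. The mean of the 3 Col-0 libraries had to be at least 5, each Col-0 library at least 2, and the mean of the 3 Ler libraries at most 0.2. In all 43 loci met these thresholds, and 1 of them is not reported here. The values in Col-0 and Ler chose the genes, so they are given as a description without a test. The question followed is which of these genes are also found in the 5 mutant groups, and which return in the double mutant that joins an allele from each accession.

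PolyA RNA was sequenced from whole seedlings at 14 days, in 7 groups of 3 libraries. The wild types were Col-0 and Ler. In the Col-0 accession the mutants were asil1-1, asil2-1 and asil1-1 asil2-1, called the Col-0 background mutants here. In the Ler accession the mutant was asil2-2, and for asil1-1 asil2-2 the labels name both accessions. Neither the crossing of that double mutant nor the place of each allele within its gene was given in the sources used here. Per the series text, the 3 libraries of a group are biological replicates. Seedlings hold many tissues, so fewer cells of a type and less RNA per cell cannot be told apart.

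ASIL1 and ASIL2 are trihelix transcription factors, a plant family that binds GT-rich promoter elements, and ASIL1 is known as a repressor of seed maturation genes in seedlings. ASIL1 (AT1G54060) had means of 32.8 CPM (Col-0), 31.9 (Ler), 40.8 (asil2-1) and 38.3 (asil2-2), and of 4.53 in asil1-1, 8.21 in asil1-1 asil2-1 and 6.07 in asil1-1 asil2-2. ASIL2 (AT3G14180) had 36.9 CPM in Col-0, 30.5 in Ler, 50.8 in asil1-1 and 24.6 in asil2-2, and it stood at 439 in asil2-1, 172 in asil1-1 asil2-1 and 81.6 in asil1-1 asil2-2. Counts over the whole gene do not say whether a transcript is complete, so the ASIL2 values do not check the asil2 labels, and groups are named as labelled. Accessions of Arabidopsis are known to differ at resistance genes of the NLR type (intracellular receptors with a nucleotide-binding site and leucine-rich repeats), in sequence and in presence. Reads were aligned to a Col-0 genome, so low transcript in Ler and Ler reads that differ too much in sequence to align cannot be told apart in these counts.

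The 250 bases before the annotated start of 4 genes are shown, since these genes come up again in the results. AT2G01090 and AT2G14285 stayed absent in asil1-1 asil2-2, and AT4G07825 and AT2G27402 returned there. Of each kind, they have the highest Col-0 CPM among genes with no annotated exon in this window. Sequence is RefSeq's for the build TAIR10.1, 5′ to 3′ on the gene's strand. Capitals mark the GT-type motifs GGTTAA and GTGATT on either strand, so the reverse complements TTAACC and AATCAC are marked too. The windows lie at chr2:79529-79778 (plus strand), chr2:6053995-6054244 (minus strand), chr4:4643497-4643746 (plus strand) and chr2:11722520-11722769 (plus strand).
AT2G01090: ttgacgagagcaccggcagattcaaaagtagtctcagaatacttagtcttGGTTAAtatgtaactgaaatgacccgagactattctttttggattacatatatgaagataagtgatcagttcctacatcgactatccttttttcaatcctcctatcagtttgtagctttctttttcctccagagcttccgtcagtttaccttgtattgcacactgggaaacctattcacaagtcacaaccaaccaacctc
AT2G14285: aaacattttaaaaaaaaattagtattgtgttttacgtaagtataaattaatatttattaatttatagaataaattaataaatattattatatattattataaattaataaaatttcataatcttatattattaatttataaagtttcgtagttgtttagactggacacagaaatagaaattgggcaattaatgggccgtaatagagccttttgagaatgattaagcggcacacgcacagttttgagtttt
AT4G07825: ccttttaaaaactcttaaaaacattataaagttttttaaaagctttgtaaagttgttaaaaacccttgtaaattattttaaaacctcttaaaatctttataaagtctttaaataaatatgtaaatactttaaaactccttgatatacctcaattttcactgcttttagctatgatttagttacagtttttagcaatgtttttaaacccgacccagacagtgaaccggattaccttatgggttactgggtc
AT2G27402: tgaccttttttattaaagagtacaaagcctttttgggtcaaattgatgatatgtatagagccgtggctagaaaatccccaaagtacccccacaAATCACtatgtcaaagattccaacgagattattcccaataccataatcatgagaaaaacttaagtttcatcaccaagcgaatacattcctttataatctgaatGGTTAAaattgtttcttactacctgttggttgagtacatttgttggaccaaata
GGTTAA was found in 8 of the 42 windows, 3 of absent and 5 of returned genes, and in 14.6% of 27443 windows of the same length before all annotated genes. GTGATT was found in 7 of the 42, against 15.6% of all windows. The 2 motifs do not overlap each other in the windows shown. A match is a description of letters and not a binding site.

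In Col-0, the 42 genes ran from means of 5.04 CPM (AT1G29600) to 51.8 CPM (AT4G07825). Per kilobase of exon, AT5G42825 and AT4G07825 were highest, at 39.9 and 34.6 CPM per kb, and AT3G51070 was lowest at 1.7. In Ler, 5 genes had no count in any library: AT2G04380, AT2G14285, AT3G47965, AT4G09420 and AT5G23830. A single library does not see everything: 3 counts correspond to between 0.104 and 0.46 CPM, and the Ler libraries held 6.52 to 28.79 M counts (M is 1000000). Just inside the Ler threshold were AT1G52100 (0.196 CPM), AT2G27402 (0.191) and AT1G66540 (0.191), and just outside were AT2G34840 (0.235), AT1G15890 (0.254) and AT7SL-1 (0.263). By the Col-0 mean, AT1G29600 (5.04), AT3G51070 (5.06) and AT1G55990 (5.07) were just inside, and QQS (4.79), AT5G55790 (4.71) and AT1G65870 (4.5) just outside. By the lowest Col-0 library, AT5G23830 (2.27), AT1G55990 (2.96) and AT5G20450 (4.15) were nearest inside and AT4G08410 (0.593) outside.

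All 42 genes are protein coding and were found in the TAIR10.1 annotation. Of them 4 are annotated as NLR or disease resistance proteins, which is 9.52% against 0.643% of the 14606 loci that meet the Col-0 part of the thresholds. Another 3 (7.14%, against 1.73%) are annotated as leucine-rich repeat kinases or proteins, 8 (19%, against 30.8%) as enzymes, and 10 (23.8%, against 7.1%) as uncharacterised. The rest are 1 F-box protein, 1 other kinase and 15 of other kinds. No transposable element was among them. Their median exonic length was 1569 nt, against 1871 nt for 14584 of the loci at the Col-0 floor that have a length in the annotation. They lie on all 5 chromosomes, 9 on chromosome 1, 7 on 2, 12 on 3, 5 on 4 and 9 on 5. The pair AT2G04378 and AT2G04380 are neighbours on opposite strands and overlap by 1126 nt, so without strand information their reads cannot be told apart.

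**Figure D1:**
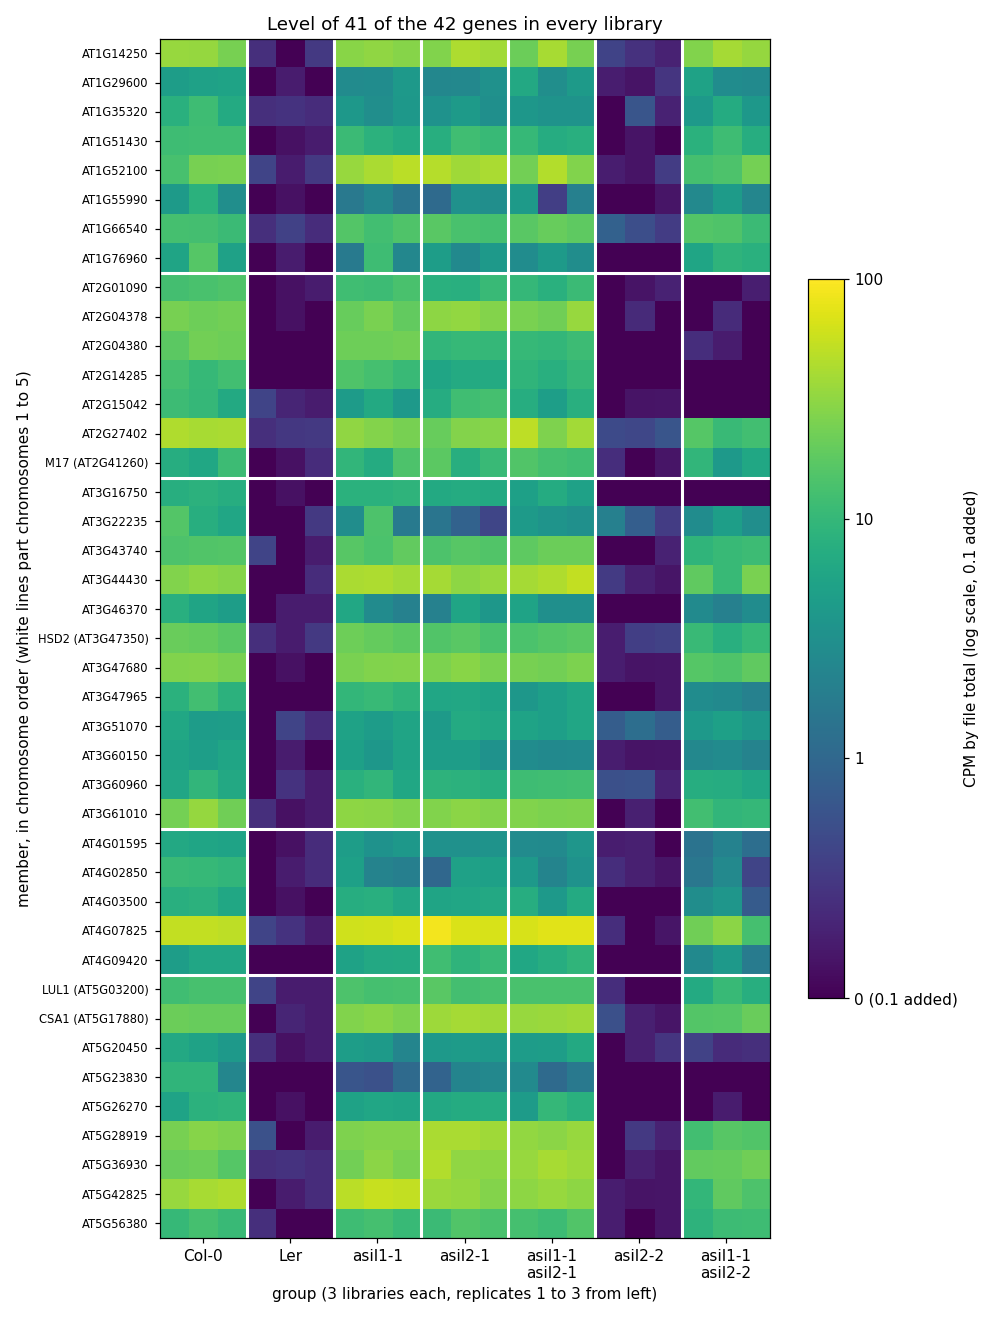
Level of 41 of the 42 genes (rows, in chromosome order, white lines between chromosomes) in each of the 21 libraries (columns, 3 per group), as CPM on a log colour scale with 0.1 added. Ler and asil2-2 are dark nearly throughout, the Col-0 background mutants are bright, and in asil1-1 asil2-2 a block of 5 genes on chromosome 2, 1 on chromosome 3 and 3 on chromosome 5 is dark while the 32 returned genes shown are not.

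A gene is called present in a group when each of the 3 libraries had at least 1 CPM, absent when the mean was at most 0.2, and intermediate otherwise. In asil1-1, 41 of 42 were present and AT5G23830 was intermediate, where 99.4% of the 14606 loci at the Col-0 floor were present. In asil2-1, 38 were present and 4 were intermediate (floor loci, 99.3%), and in asil1-1 asil2-1 40 were present and 2 were intermediate (99.3%). None was absent in these 3 groups. In asil2-2, none was present, 8 were intermediate and 34 were absent, where 99.0% of the floor loci were present. In asil1-1 asil2-2, 31 were present, 2 were intermediate (AT4G02850 and AT4G03500) and 9 were absent, where 99.8% of the floor loci were present. The 33 genes that were present or intermediate there are called returned.

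The Col-0 background mutants and asil2-2 took no part in the choice of the genes and were compared by edgeR's quasi-likelihood test, with p adjusted over all 19589 genes tested. All 42 passed the filter on low counts, as the choice by Col-0 level made them do. As the mean of asil1-1, asil2-1 and asil1-1 asil2-1, 41 of the 42 were higher than in asil2-2, none was lower and 1 was not called, where 19.7% of all genes were higher and 17.7% lower. The median log2 difference was 8.0, or 7.32 with the 9 genes that have no count in asil2-2 set at the bound that 3 counts in the group allow, and -0.000 over all genes tested. Accession and mutation both differ in this comparison and cannot be told apart. The gene not called was AT3G22235 (log2 difference 1.62 ± 0.69 SE, adjusted p = 0.0741), and it was called without asil1-1 replicate 3 or without asil2-2 replicate 1.

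In asil1-1 asil2-2 against asil2-2, 32 of the 42 genes were higher, none was lower and 10 were not called, where 13.4% of all genes were higher and 9.85% lower. The 10 were the 9 absent genes and AT3G22235. Over the 33 returned genes the median log2 difference was 6.76, or 6.63 with the 4 that have no count in asil2-2 at their bound, and over all genes tested it was -0.018. In asil1-1 asil2-2 against asil1-1, none was higher, 27 were lower and 15 were not called, where 14.0% of all genes were higher and 15.9% lower. Without asil1-1 replicate 2, AT1G76960 was called higher (1.73 ± 0.47, adjusted p = 0.0114). The 27 were the 9 absent genes and 18 of the 33 returned ones. The returned genes had a median log2 difference of -0.88 from asil1-1, and 29 of 33 were below 0, while the median of all genes tested was 0.006. The returned genes were picked by level in these same asil1-1 asil2-2 libraries, so both their medians are a description without a test. The split of the calls into absent and returned genes is a description too. Over all 42 genes the medians were 6.34 against asil2-2 and -1.20 against asil1-1.

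The 3 NLR genes described here all returned in asil1-1 asil2-2. CSA1 (AT5G17880, chr5:5908834-5913317), a TIR-type NLR first found through a mutant with altered light responses, had 0.447, 0.0853 and 0.0478 CPM in asil2-2 and 15.8, 16.1 and 20.5 in asil1-1 asil2-2. The double mutant was 98.9-fold higher than asil2-2 (adjusted p = 3.86e-14) and 1.79-fold lower than asil1-1 (27, 29.2 and 25.4 CPM; -0.84 ± 0.15, adjusted p = 0.000158).

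AT5G36930, another TIR-type NLR gene, had 3 counts in all in asil2-2 and 18.9, 19.6 and 22.2 CPM in asil1-1 asil2-2 (adjusted p = 6.57e-15). Its double mutant libraries lay below the 23.1, 29.7 and 24.5 CPM of asil1-1 without overlap (1.46-fold lower, adjusted p = 0.00582), although with root marker level as a covariate this was not called (adjusted p = 0.0664). AT4G09420, annotated as a TIR-NBS protein, had no count in Ler or asil2-2 and 2.53, 3.96 and 1.65 CPM in asil1-1 asil2-2. That is at least 52.3-fold higher than in asil2-2, with 3 counts put over that group (adjusted p = 7.83e-08), and 2.54-fold lower than in asil1-1 (5.3, 6.45 and 6.47 CPM, adjusted p = 0.00103). Of the 158 genes of this annotation class tested, 29.7% were higher and 8.86% lower in asil1-1 asil2-2 than in asil2-2, so that direction was not confined to the members.

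The 3 leucine-rich repeat genes did not all return. AT3G43740 had no count in 2 asil2-2 libraries and 0.0955 CPM in the third, and 9.04, 10.3 and 11.2 CPM in asil1-1 asil2-2 (adjusted p = 3.52e-12). Against asil1-1 (16.3, 13.9 and 19 CPM) the double mutant was 1.84-fold lower (adjusted p = 0.00128). AT3G46370, a leucine-rich repeat protein kinase gene, had no count in asil2-2 and 2.6, 1.91 and 2.74 CPM in asil1-1 asil2-2, at least 46.6-fold higher (adjusted p = 3.94e-06). AT2G15042 had no count in any asil1-1 asil2-2 library and 4.35, 6.63 and 4.11 CPM in asil1-1, so it was at least 69.1-fold lower in the double mutant (adjusted p = 1.1e-08).

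Of the 8 genes in the enzyme class, 6 were higher in asil1-1 asil2-2 than in asil2-2 and 2 were absent, where 14.9% of all 5706 enzyme-class genes tested were higher and 11.3% lower. AT1G14250, a nucleoside phosphatase gene, had 26.6, 39.8 and 33.2 CPM in the double mutant and 28.9, 32 and 28.8 in asil1-1, which overlap (-0.05 ± 0.23, adjusted p = 0.895), and 0.298, 0.171 and 0.0955 in asil2-2 (171-fold lower, adjusted p = 1.19e-10). AT1G66540, a cytochrome P450 gene, had 15.7, 14.8 and 11.1 CPM in the double mutant and 15.6, 12.3 and 14.7 in asil1-1 (adjusted p = 0.318). HSD2 (AT3G47350), of a hydroxysteroid dehydrogenase family with members on seed oil bodies, had 10.7, 7.72 and 10.2 CPM in the double mutant. These values lie between asil2-2 (0.0746, 0.256 and 0.287 CPM, 38.7-fold lower than the double mutant, adjusted p = 1.48e-12) and asil1-1 (21.9, 19.2 and 17.6 CPM, 2.36-fold higher, adjusted p = 5.22e-06). AT3G61010, a ferritin and ribonucleotide reductase-like gene, had 12.3, 9.23 and 9.96 CPM in the double mutant and 30.8, 29.9 and 27 in asil1-1 (3.19-fold lower, adjusted p = 4.23e-08).

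The 2 enzyme-class genes that stayed absent are on chromosome 2. AT2G01090, for the hinge protein of mitochondrial complex III, had 11.9, 11.2 and 13.6 CPM in asil1-1 and a single count among the 3 asil1-1 asil2-2 libraries (adjusted p = 2.3e-12). Its annotated span overlaps AT2G01100 by 275 nt on the same strand. AT2G04378, annotated as beta-galactosidase related, had 19.8, 24.9 and 18.7 CPM in asil1-1 and 2 counts in the double mutant (adjusted p = 5.36e-13). Its overlapping neighbour AT2G04380, uncharacterised, had 21.5, 21.4 and 22.9 CPM in asil1-1 and 3 counts in the double mutant (adjusted p = 1.2e-12). Both had at most 3 counts in asil2-2.

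Genes that act on proteins and RNA were found on both sides. LUL1 (AT5G03200), a RING-type ubiquitin ligase gene, had 6.73, 10.4 and 7.6 CPM in asil1-1 asil2-2 and 14.3, 12.9 and 13.3 in asil1-1 (1.88-fold lower, adjusted p = 0.00119). The F-box gene AT5G56380, named after its values were seen, had 8.61, 11.3 and 11.6 CPM in the double mutant and 11.6, 13 and 10.3 in asil1-1, which overlap (adjusted p = 0.159). AT3G47680, annotated as DNA binding, had 16.1, 15 and 18.3 CPM in the double mutant and 24.5, 26.7 and 27.6 in asil1-1 (1.82-fold lower, adjusted p = 3.36e-06). AT2G14285, for an Sm-type small nuclear ribonucleoprotein, had no count in any library of Ler, asil2-2 or asil1-1 asil2-2 and 14.7, 12.9 and 10.8 CPM in asil1-1, so it was at least 176-fold lower in the double mutant (adjusted p = 1.65e-10).

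Among genes named for stress or storage, M17 (AT2G41260), a late embryogenesis abundant protein gene of seed desiccation, was named after its values were seen. It had 9.26, 4.1 and 6.04 CPM in asil1-1 asil2-2, 9.43, 6.9 and 14.4 in asil1-1 and at most 0.149 in an asil2-2 library. It was higher than in asil2-2 (adjusted p = 1.56e-06) and was not called against asil1-1 (-0.84 ± 0.37, adjusted p = 0.0929), although it was called lower without asil1-1 asil2-2 replicate 1 (adjusted p = 0.0317) and with the replicate number as a block (adjusted p = 0.0266). AT1G52100, a mannose-binding lectin gene, had 12.9, 14.6 and 23.5 CPM in the double mutant and 34.2, 41.7 and 49.1 in asil1-1 (2.8-fold lower, adjusted p = 0.000939). It was the only one of 9 returned genes on chromosome 1 that was lower than in asil1-1. AT2G27402, annotated as a plastid transcriptionally active protein, had 16.1, 10.6 and 12.2 CPM against 31.4, 27.7 and 23.9 (2.45-fold lower, adjusted p = 4.31e-05).

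Of the 10 uncharacterised genes, 7 were higher in asil1-1 asil2-2 than in asil2-2, and 8 were lower than in asil1-1. Of all 1702 genes of this class tested, 12.4% were higher in the first comparison and 19.3% lower in the second. AT4G07825 had 22.2, 30.3 and 12.8 CPM in the double mutant, 61.1, 63 and 68.1 in asil1-1 (3.37-fold lower, adjusted p = 2.26e-06) and 3 counts in asil2-2. AT5G42825 had 9.62, 18.3 and 14.3 CPM in the double mutant and 48.5, 56.6 and 52.5 in asil1-1 (4.29-fold lower, adjusted p = 3.86e-09). It overlaps U2AF35B by 981 nt on the opposite strand, a gene with 22099 counts over the 21 libraries, so part of its reads may not be its own. AT3G44430 had 18.2, 10.3 and 24.5 CPM against 41.7, 43 and 37.8 (2.65-fold lower, adjusted p = 0.000103), and AT5G28919 had 12.2, 16.3 and 15.3 against 25.9, 27.7 and 27.3 (2.11-fold lower, adjusted p = 5.55e-05). AT3G16750 and AT5G26270 stayed absent, with 0 and 1 counts in the double mutant and 8.25, 8.08 and 8.84 CPM and 5.23, 5.9 and 5.48 CPM in asil1-1 (adjusted p = 9.11e-11 and 1.42e-08).

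The other 2 absent genes are on chromosome 5. AT5G20450, annotated as a myosin, had 0.289, 0.137 and 0.157 CPM in asil1-1 asil2-2, 4.64, 4.27 and 2.24 in asil1-1 (21.3-fold higher, adjusted p = 1.76e-07) and 0, 0.0853 and 0.191 in asil2-2. With 8 counts over its 3 libraries it was the absent gene with the most reads in the double mutant. AT5G23830, of the MD-2-related lipid recognition family, had no count in Ler, asil2-2 or asil1-1 asil2-2. It was also low in asil1-1, at 0.516, 0.454 and 0.996 CPM, so that the double mutant was at least 9-fold lower (adjusted p = 0.00426), a call that was lost when the 2 groups were fitted alone.

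Returned and absent genes lay in unbroken runs along the chromosomes. All 9 on chromosome 1, the last at 28.92 Mb, returned. On chromosome 2 the 5 genes from 0.08 to 6.51 Mb were absent and the 2 from 11.72 to 17.21 Mb returned. On chromosome 3, AT3G16750 at 5.70 Mb was absent and the 11 from 7.85 to 22.58 Mb returned. All 5 on chromosome 4, between 0.69 and 5.96 Mb, returned. On chromosome 5 the 2 genes from 0.76 to 5.91 Mb returned, the 3 from 6.91 to 9.21 Mb were absent and the 4 from 10.94 to 22.84 Mb returned. ASIL1 lies at 20.18 Mb on chromosome 1, within the returned run, and ASIL2 at 4.71 Mb on chromosome 3, nearest to the absent AT3G16750.

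The level to which genes returned also differed by chromosome. As a percent of the mean of the 3 Col-0 background mutants, the returned genes of chromosome 1 had a median of 106 (44.3 to 186), and 2 of 9 were under 100. On chromosomes 2 to 5 all 24 returned genes were under 100. The medians were 48.8 on chromosome 2 (42.9 to 54.7), 62.8 on chromosome 3 (35.7 to 96.9), 37.4 on chromosome 4 (31.3 to 43.9) and 55.8 on chromosome 5 (36.2 to 83.1). Against asil1-1, 1 of 9 returned genes on chromosome 1 was lower, 1 of 2 on chromosome 2, 7 of 11 on chromosome 3, 4 of 5 on chromosome 4 and 5 of 6 on chromosome 5. The reference level matters for this contrast. As a percent of the Col-0 mean, which chose the genes, those of chromosome 1 reported singly ran from 56.4 (AT1G35320) to 114 (AT1G66540). The returned genes of chromosomes 2 to 5 ran from 14 (AT4G02850) to 105 (AT5G36930) on that scale. The difference between chromosomes was not tested.

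On chromosome 4 the 3 libraries of asil1-1 asil2-2 fell in the same order for every gene. Replicate 2 was highest, replicate 1 next and replicate 3 lowest in 5 of 5, with medians of 57.4%, 38.5% and 18.4% of the Col-0 background mutants. The same order was found in 3 of 9 returned genes on chromosome 1, none of 2 on chromosome 2, 2 of 11 on chromosome 3 and none of 6 on chromosome 5. Other orders were not counted, but some were shared too. On chromosome 2, AT2G27402 and M17 both ran in the order of replicates 1, 3 and 2. On chromosome 5, replicate 1 was lowest in each of the 6 returned genes. AT4G02850, annotated in the phenazine biosynthesis PhzC/PhzF family, had 1.45, 2.46 and 0.314 CPM, and AT4G03500, an ankyrin repeat gene, had 2.82, 3.62 and 0.627. Replicate 3 lay under 1 CPM in both, which makes them intermediate by the definition above. They were higher than in asil2-2 (14.1-fold, adjusted p = 0.00308, and at least 45.4-fold, adjusted p = 1.47e-06), but neither was called when only the 2 groups were fitted.

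**Figure D2:**
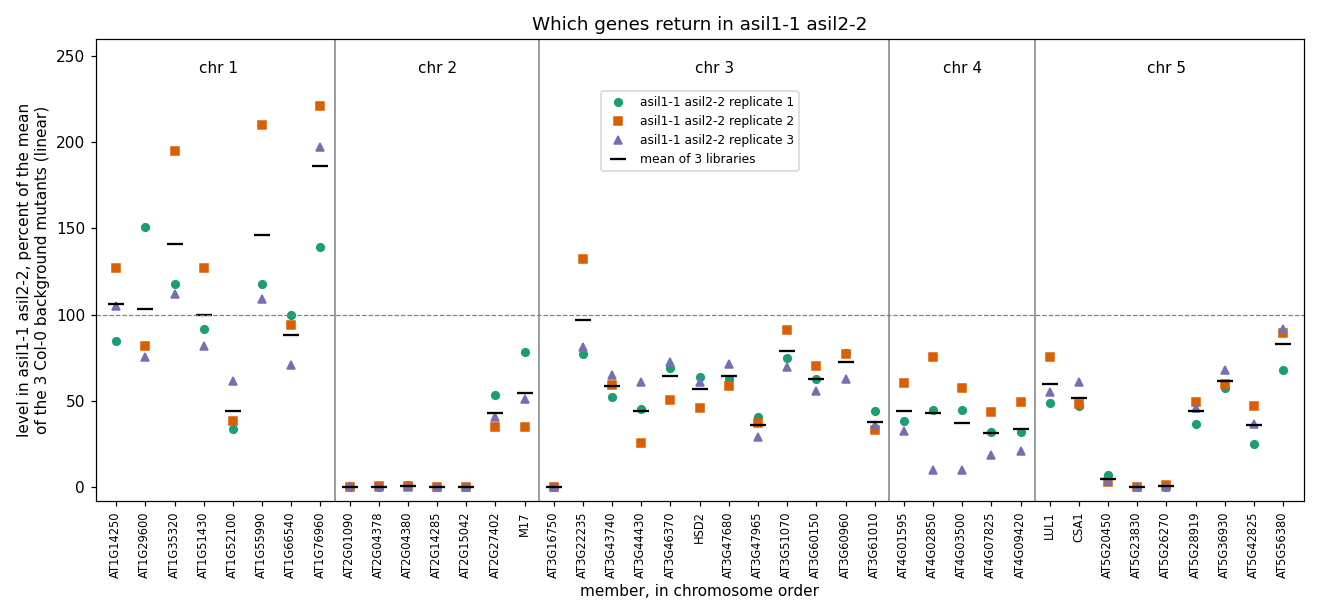
Level of 41 of the 42 genes in the 3 libraries of asil1-1 asil2-2 (coloured symbols) and their mean (black line), as a percent of the mean of the 3 Col-0 background mutants on a linear axis, in chromosome order. The median over all 9 genes of chromosome 1 is 106%, the means of the 9 absent genes lie at 4.48% or less, and the 5 genes of chromosome 4 share the order of replicates 2, 1 and 3.

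Genes around the 42 were described with an index over other genes. These were picked and scaled by the same Col-0 and Ler libraries that chose the 42. Genes called between Ler and Col-0 with an absolute log2 difference of at least 1 were used, the 42 left out. The loci of the reverse kind, high in Ler and near absent in Col-0, were not left out. The index and the account of those loci below are thus not separate observations. The genes used were placed on a scale from the Col-0 mean (0) to the Ler mean (1). The median of up to 5 on each side of a gene was taken. In asil1-1 asil2-2 it was 0.79 around the 9 absent genes (0.64 to 0.93) and 0.45 around the 33 returned genes (0.02 to 0.71). Part of that distance was also seen in groups labelled as pure Col-0: around the absent genes the median was 0.35 in asil1-1, 0.59 in asil2-1 and 0.66 in asil1-1 asil2-1, and around the returned genes 0.22, 0.40 and 0.41. In asil2-2 it was 0.95 and 0.93. The index thus does not start from 0 in a Col-0 mutant.

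A second index, added after the data were seen, runs from the mean of the Col-0 background mutants (0) to asil2-2 (1) over 320 genes with an absolute log2 difference between the wild types of at least 3, with 3 genes on each side. The median of this index was 0.83 around the absent genes and 0.20 around the returned ones. On chromosome 1 it was 0.01 (-0.08 to 0.23) around all 9 genes, and around the 5 absent genes of chromosome 2 it was 0.83 (0.79 to 0.85). Genes close together can share neighbours, as AT2G04378 and AT2G04380 do, so their values are not separate observations. Around the 3 absent genes of chromosome 5 the index was 0.68 (0.45 to 0.87), while the returned genes gave 0.42 on chromosome 2, 0.20 on chromosome 3, 0.35 on chromosome 4 and 0.48 on chromosome 5. AT3G16750 went against this, at -0.19 with single neighbours from -1.24 to 1.81, spread over 5.09 Mb. AT3G43740 and AT3G44430 returned with indices of 0.87 and 0.75. The accession of origin of a segment was not measured in these files.

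**Figure D3:**
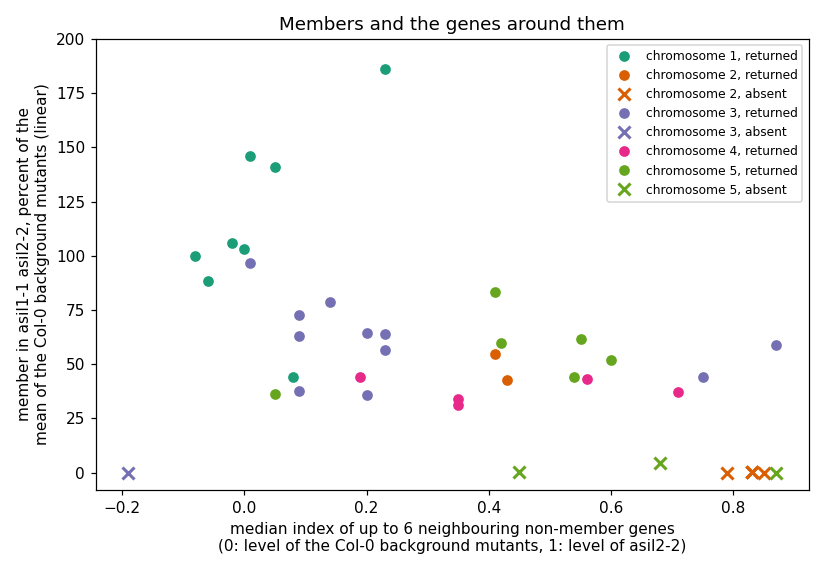
Level of 41 of the 42 genes in asil1-1 asil2-2, as a percent of the Col-0 background mutants (linear axis), against the median index of up to 6 neighbouring genes (0 is the level of the Col-0 background mutants, 1 that of asil2-2). Chromosome 1 genes lie at the left around 0.01, the absent genes of chromosome 2 (crosses) at 0.79 to 0.85, and AT3G16750 is the cross at -0.19.

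The reverse set, 15 loci with at least 5 CPM in Ler and at most 0.2 in Col-0, gave the opposite picture on chromosome 1. All 15 were present in asil2-2. In asil1-1 asil2-2, 8 were present, 1 was intermediate and 6 were absent, and the 6 absent and the intermediate one are the 7 on chromosome 1 between 7.81 and 23.57 Mb. AT1G63540, for example, had 28.9 CPM in Ler and 27.4 in asil2-2, and 0.145, 0.0683 and 0 in the double mutant. AT1G03106, at 0.75 Mb on chromosome 1, was present with 6.87, 5.4 and 6.82 CPM. On chromosome 4, AT4G04402 at 2.16 Mb lies among the returned genes above and had 4.77, 3.42 and 3.21 CPM, 40.7% of asil2-2. So there a Col-0 gene and a Ler gene were both found in the same 3 libraries, each below the level of its own background. This was not confined to chromosome 4. On chromosome 3, AT3G44070 at 15.83 Mb had 62.2% of asil2-2. It lies between the returned AT3G43740 and AT3G44430, at 58.7% and 43.9% of the Col-0 background mutants. On chromosome 5, AT5G32460 and AT5G39770 lie within the returned run from 10.94 to 22.84 Mb and had 48.4% and 42.6% of asil2-2.

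Among the Col-0 background mutants the highest of the 3 group means was less than 2 times the lowest for 37 of 42 (88.1%), and for 93.8% of the floor loci. In asil1-1 against asil2-1, 7 were higher, 2 were lower and 33 were not called, where 12.5% of all genes were higher and 9.27% lower. In asil1-1 asil2-1 against asil1-1, none was higher, 7 were lower and 35 were not called, where 6.21% were higher and 9.43% lower. In asil1-1 asil2-1 against asil2-1, none of the 42 was called by edgeR, where 3.17% were higher and 3.04% lower, 8 had an unadjusted p under 0.05 and DESeq2 called 1. These counts are given beside the shares of all genes, were not tested against them and are not read as a result about the 42.

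AT2G04380 differed most clearly by the counts given to it. Without strand information its reads cannot be told apart from those of AT2G04378, which spans it on the opposite strand. AT2G04378 went the other way in asil1-1 against asil2-1, with no overlap between libraries, but was not called (-0.41 ± 0.18, adjusted p = 0.101). AT2G04380 had 21.5, 21.4 and 22.9 CPM in asil1-1, 9.31, 10.2 and 9.79 in asil2-1 and 10.1, 9.66 and 11.2 in asil1-1 asil2-1, beside 17.5, 23.1 and 21.8 in Col-0. It was 2.41-fold higher in asil1-1 than in asil2-1 (adjusted p = 8.6e-06) and 2.32-fold lower in asil1-1 asil2-1 than in asil1-1 (adjusted p = 3.68e-05), and all libraries of both groups with asil2-1 lay below every Col-0 and asil1-1 library. AT5G42825 followed the same order, with 35, 33.2 and 27.6 CPM in asil2-1 and 30.5, 34 and 31.2 in asil1-1 asil2-1 (adjusted p = 0.000298 and 0.000474 for the same comparisons). AT3G47965, uncharacterised, had 9.57, 10.3 and 8.84 CPM in asil1-1, 5.87, 6.24 and 5.41 in asil2-1 and 3.73, 4.9 and 5.92 in asil1-1 asil2-1 (adjusted p = 0.00822 and 0.00147). These 3 kept both calls when any 1 library was left out.

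AT2G14285 had 5.69, 6.78 and 6.69 CPM in asil2-1 and 9.11, 7.64 and 9.99 in asil1-1 asil2-1, both below asil1-1 (adjusted p = 0.000414 and 0.0234). The second call was lost without asil1-1 replicate 1 or 2, or without asil1-1 asil2-1 replicate 1 or 2. AT2G15042 went the other way, being lower in asil1-1 than in asil2-1 (7.05, 11.8 and 13 CPM; -0.97 ± 0.27, adjusted p = 0.0121), as was AT5G28919 (41.8, 41.9 and 37.2 CPM in asil2-1; -0.47 ± 0.16, adjusted p = 0.0395). The AT2G15042 call was lost without asil1-1 replicate 1 or 3 or asil2-1 replicate 2 or 3. The AT5G28919 call was lost without any 1 of the 6 libraries compared, and without asil1-1 asil2-1 replicate 3. AT3G60150, AT3G16750 and HSD2 were lower in asil1-1 asil2-1 than in asil1-1 (adjusted p = 0.0115, 0.0261 and 0.0433), and AT2G01090 and HSD2 higher in asil1-1 than in asil2-1 (0.0414 and 0.0293). The first HSD2 call was lost under 11 alternatives (adjusted p up to 0.177), among them the replicate block, no filter and leaving out any 1 of the 6 libraries compared. The AT3G16750 call was lost without any 1 asil1-1 library or without asil1-1 asil2-1 replicate 1 or 3, and the AT3G60150 call without asil1-1 replicate 3. In asil1-1 against asil2-1, AT2G01090 was lost under 6 alternatives and HSD2 under 4. Without any 1 asil1-1 library, or asil1-1 asil2-1 replicate 1, 4 of 7 calls were left in asil1-1 asil2-1 against asil1-1. Without asil1-1 replicate 1 or 2, 5 of 9 were left in asil1-1 against asil2-1. AT5G36930 was newly called in both comparisons without asil1-1 replicate 2.

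Transcript length moved with these comparisons. In asil1-1 against asil2-1 the median log2 difference over all genes tested was 0.67 for the 991 with at most 800 nt of exon and -0.15 for the 7786 over 2000 nt, and 0.71 and 0.05 for the 8 and 13 of the 42 genes in these classes. In asil1-1 asil2-1 against asil1-1 it was -0.52 and 0.13 over all genes, and -0.71 and -0.06 for the 42. Genes called higher in asil1-1 than in asil2-1, or lower in asil1-1 asil2-1 than in asil1-1, were of several lengths. AT2G04380, AT2G14285, AT3G47965, AT2G01090 and AT3G22235 have 697, 580, 522, 683 and 687 nt. AT5G42825, AT3G16750, AT3G60150 and HSD2 have 994, 1317, 1356 and 2605 nt, outside the short class. AT2G15042 and AT5G28919, which went the other way, have 1726 and 1739 nt. In asil1-1 asil2-2 against asil1-1 the short genes had medians of -0.46 over all genes and -1.89 among the 42, and the long ones 0.05 and -0.82. Among the 42, the short class holds the absent AT2G01090, AT2G04380 and AT2G14285, and the long class the absent AT5G20450. The medians of the 42 in this comparison thus mix absence with length. The part of length in these results was not tested.

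**Figure D4:**
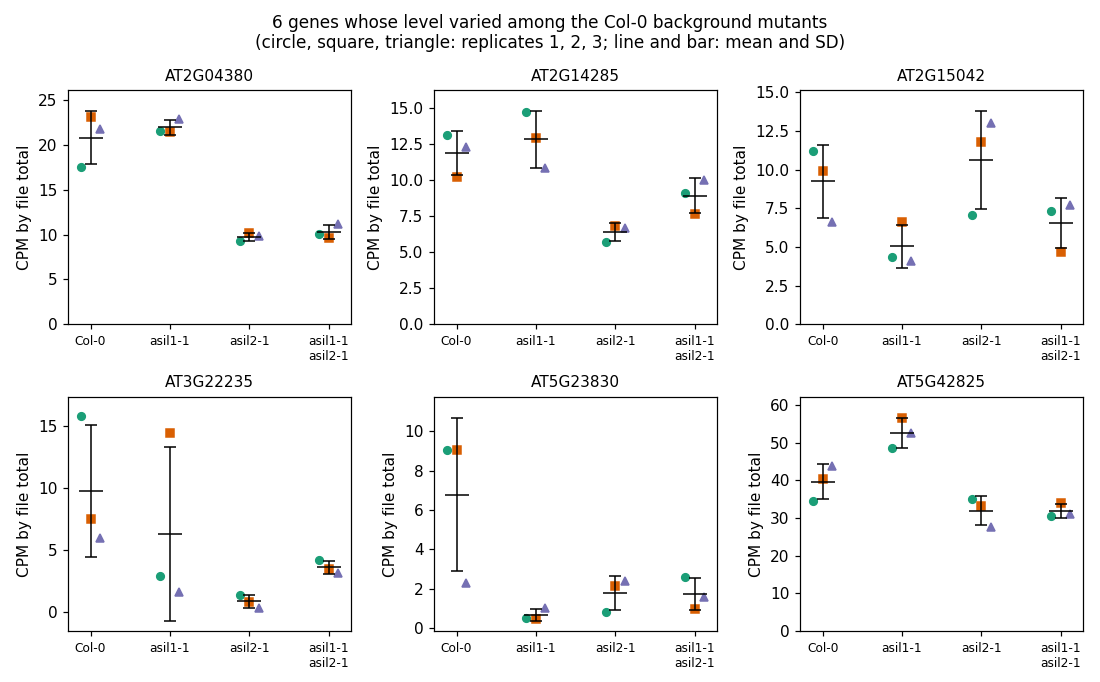
CPM in each library of Col-0 and the 3 Col-0 background mutants for 6 genes (symbols are replicates 1 to 3, line and bar are mean and SD, n = 3, linear axes). AT2G04380 and AT2G14285 are lower in both groups with asil2-1, AT2G15042 is lowest in asil1-1, and AT3G22235 and AT5G23830 spread most between libraries.

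A few genes went against the common pattern. AT3G22235, of the small cysteine-rich transmembrane proteins linked to stress tolerance, had 1.94, 0.683 and 0.239 CPM in asil2-2, the highest mean of the 42 there (0.954 ± 0.882 SD). It had 15.8, 7.49 and 5.93 CPM in Col-0, 2.87, 14.4 and 1.62 in asil1-1, 1.36, 0.766 and 0.318 in asil2-1 and 2.75, 4.72 and 2.9 in asil1-1 asil2-2. So it overlapped between asil2-1 and asil2-2, and although every asil1-1 asil2-2 library lay above asil2-2 the difference was not called (1.90 ± 0.76, adjusted p = 0.0837). It was called without asil2-2 replicate 1, without asil1-1 replicate 2 and when the 2 groups were fitted alone. It was higher in asil1-1 than in asil2-1 (8.5-fold, adjusted p = 0.00905), and this was not called without asil1-1 replicate 2 or when the 2 groups were fitted alone (adjusted p = 0.0659). Its transcript shares 99.4% identity over 344 nt with AT3G22231, so counts of the 2 may be mixed.

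Other genes with a mean over 0.2 CPM in asil2-2 were AT3G51070 (0.671, 1.11 and 0.669 CPM), AT1G66540 (0.746, 0.427 and 0.239), AT2G27402 (0.373, 0.341 and 0.525), AT3G60960 (0.447, 0.469 and 0.0955), HSD2 and AT1G35320 (0, 0.512 and 0.0955). AT3G51070, a methyltransferase family gene, had 4.05, 4.92 and 3.76 CPM in asil1-1 asil2-2, 4.76-fold higher than in asil2-2 (adjusted p = 4.76e-06). AT3G60960, a tetratricopeptide repeat gene, had 7.23, 7.18 and 5.8 CPM (18.9-fold higher, adjusted p = 1.1e-09). Neither was called against asil1-1 (adjusted p = 0.177 and 0.173). AT1G76960, uncharacterised and named after its values were seen, stood highest against the Col-0 background mutants, with 5.64, 8.95 and 8 CPM in the double mutant or 186% of their mean. Its asil1-1 libraries had 1.62, 11.5 and 2.37 CPM and its Col-0 libraries 5.59, 16.1 and 5.04. It was not called against asil1-1 (0.35 ± 0.57, adjusted p = 0.683), except without asil1-1 replicate 2.

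AT5G23830 varied within Col-0 itself, with 9.04, 9.04 and 2.27 CPM in replicates 1, 2 and 3. The mean log2 score of the 13 of 19 root markers that were tested was also higher in Col-0 replicates 1 and 2 (1.35 and 1.36) than in replicate 3 (0.06) and in the other libraries (-1.14 to 0.89). In asil1-1 the root score was -0.34, -0.96 and -0.74, and AT5G23830 had its lowest mean among the Col-0 background mutants there (0.655 ± 0.297 CPM). The root markers summed to 79.4 to 127 CPM in Col-0 and 79.7 to 118 in the Col-0 background mutants, and 12 shoot markers to 59400 to 74700 and 31700 to 60700 CPM. The root markers RHD6, ESB1, PLT2 and WOX5 did not pass the filter on low counts, and none of the listed markers is one of the 42 genes. The part of root RNA in the level of AT5G23830 was not tested. With the root score as a covariate, the counts of the 42 genes called in asil1-1 asil2-2 were 32 higher than in asil2-2 and 28 lower than in asil1-1.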

How the data were processed

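RNA of whole seedlings was counted in 21 libraries of 6.52 to 28.79 M counts (M is 1000000). The deposited files hold raw counts made by the authors, for 1 transcript model per locus, and list only loci with a count. The submitters' processing notes name the aligner Bowtie 0.12.7, the package edgeR 3.0.8 and the build TAIR10. The use of strand, the handling of reads that map to several places and the counter: not given in the sources used here. Levels are CPM by file total. Names, coordinates and sequences come from RefSeq's TAIR10.1 by locus tag (23867 loci matched, all 42 genes among them). The members, annotation classes and marker lists were chosen with earlier results of these data known.

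Counts were tested with edgeR 4.0.16 in R 4.3.3: filterByExpr (19589 genes kept, 4511 removed), TMM, 1 mean per group over all 21 libraries, robust quasi-likelihood with 14 residual degrees of freedom, and Benjamini-Hochberg adjustment over all genes with a threshold of 0.05. The members are reported in 6 comparisons, none with a wild type. Ler was also compared with Col-0, and those calls served only to pick the neighbouring genes of the indices. Fold changes are log2 values ± SE with n = 3 libraries per group, except the mean of 3 mutants. Where a group had no count, the fold is a bound with 3 counts over the group. Folds are left out where a group had 1 to 3 counts. Similar transcripts were sought with BLAST 2.17.0 (at least 95% identity over 100 nt). Root markers were scored as the mean centred log2 level of 13 of 19 listed genes that passed the filter.

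Genes named are the 15 returned genes of highest Col-0 mean, 8 absent ones, those over 0.2 CPM in asil2-2, the 4 of smallest p per direction among Col-0 background mutants, and those nearest the thresholds. One of the 42 stays in all counts and medians but is not reported singly here. Named after values were seen are AT5G20450, which completes the 9 absent genes, the 2 intermediate genes, AT4G09420 and AT3G46370, which complete their classes, M17, AT5G56380 and AT1G76960. Alternatives were RLE scaling, other filters, DESeq2 1.42.0, the compared groups alone, a replicate block, a root covariate, other thresholds and leaving out each library.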

Additional observations from a re-analysis of the deposited data

How the results depend on the processing

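Of 3245 values recomputed under the alternatives for single genes that were called, 3200 kept their direction and side of the threshold, 45 lost the call and none reversed. Among genes not called, the alternatives gave 41 further calls. In asil1-1 asil2-2, 31 to 33 of the 42 genes were higher than in asil2-2 and 26 to 28 lower than in asil1-1, and 41 to 42 were higher in the Col-0 background mutants than in asil2-2. The replicate number as a block gave 32, 28 and 41, and 6, 0 and 9 calls among the Col-0 background mutants. The numbers do not pair the samples: same-numbered libraries had correlations of their deviations from -0.40 to 0.35. Leaving out 1 library gave 4 to 8 calls, against 7, in asil1-1 asil2-1 against asil1-1, 5 to 10, against 9, in asil1-1 against asil2-1, and 0 to 2, against 0, in asil1-1 asil2-1 against asil2-1. In the last, the root score gave 1 (AT2G27402), the compared groups alone 2 (AT3G22235 and AT3G60960) and DESeq2 1 (AT5G28919), and over all genes the root score gave 1912 calls, against 1216, and leaving out asil1-1 asil2-1 replicate 1 gave 649. In asil1-1 asil2-1 against asil1-1 all genes gave 2001 calls without asil1-1 asil2-1 replicate 3, against 3065. With a Col-0 mean of at least 10 CPM, 23 genes would be chosen, and with at least 2 CPM (each library at least 1) 85. Other thresholds and left-out libraries gave 28 to 57. Present in asil1-1 asil2-2 were 27 to 33. The index around returned genes moved from 0.45 to 0.20 on the second scale, and the cause was not tested. Depth limits the absent calls: 3 counts, the limit that a count of 0 allows, were 0.205 to 0.235 CPM in the asil1-1 asil2-2 libraries.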
